A study of Mus musculus with 12 samples.

Results

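The tricarboxylic acid (TCA) cycle enzymes described here are 9 mitochondrial proteins, chosen by gene symbol from the deposited table of normalized read counts: *Cs*, *Idh3a*, *Idh3b*, *Idh3g*, *Ogdh*, *Dlst*, *Suclg1*, *Fh1* and *Mdh2*. All 9 were found among the 14244 gene rows. RNA came from gut epithelial cells of C57BL/6 mice, 8 weeks old and male, in 5 wild type (WT) libraries and 7 libraries with the label CHD8+/-, called *Chd8L*+/- in the study's methods. *Chd8L*+/- mice carry in every tissue a germline deletion of exons on 1 copy of *Chd8*, a chromatin remodeler gene linked to autism, and WT mice were their littermates. The cells were shaken off pieces of intestine after chelation, so villus and crypt cells of all kinds could be in each preparation, and in such bulk RNA fewer cells of a type and less RNA per cell cannot be told apart. The methods give 5 WT and 7 *Chd8L*+/- mice, the same numbers as the libraries, and the labels do not tie a library to a mouse.

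The TCA cycle takes acetyl groups from carbohydrate, fat and amino acids, oxidizes them to carbon dioxide and passes the electrons to the respiratory chain. In the intestine the cycle is also fed by glutamine, and absorptive enterocytes on the villus hold more mitochondria than the dividing cells of the crypt. Citrate synthase (*Cs*) opens the cycle, isocitrate dehydrogenase 3 (*Idh3a*, *Idh3b*, *Idh3g*) and the 2-oxoglutarate dehydrogenase complex (*Ogdh*, *Dlst*) carry out its oxidative decarboxylations, and succinyl-CoA ligase (*Suclg1*), fumarase (*Fh1*) and malate dehydrogenase 2 (*Mdh2*) close it.

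Recovered totals lay between 15691662 and 20761315 reads per library. *Chd8* itself had 823 to 1050 normalized counts in WT and 1084 to 1483 in *Chd8L*+/- libraries, over the whole gene with no view of the deleted exons. All 10 shared epithelial markers were in the table, with a summed level of 173224 to 304086 normalized counts in WT and 167425 to 296289 in *Chd8L*+/- libraries. Leukocyte markers (14 of 15 in the table) summed to 6111 to 10405 in WT and 5337 to 11894 in *Chd8L*+/- libraries. Stromal and endothelial markers (12 of 12 in the table) summed to 160 to 653 and 241 to 2406, with *Col1a2*, *Col3a1*, *Pdgfra* and *Lum* at 0 in at least 1 library; WT replicate 2 had the highest WT sum of both. WT replicate 2 lay apart from the other WT libraries on the first principal component (41.0, against -67.5 to -26.2) and inside the range of the *Chd8L*+/- libraries (0.26 to 42.7).

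None of the 9 enzymes passed an adjusted p of 0.05 between genotypes (limma, Benjamini-Hochberg over 12808 genes), where 0.0234% of all genes tested did, and edgeR and DESeq2 on the recovered reads also called 0 of 9 (background 0.039% and 6.44%). A fit with the letter in the library name as a block, which calls 3.52% of all genes tested, called 0 of 9 too. 8 of 9 had a lower mean on the log2 scale in *Chd8L*+/- libraries, where 48.6% of all genes tested did; the count was 6 of 9 with library totals as the scale and 5 of 9 after quantile normalization. At an unadjusted p of 0.05 or less (limma), 4 of 9 were lower (*Cs*, *Mdh2*, *Dlst*, *Suclg1*) and 0 higher. Of all genes tested, 11.8% were lower and 12.5% higher. The count of enzymes was 0 of 9 after quantile normalization and with library totals as the scale. Of the 12808 genes tested, 2824 and 2934 passed in those fits, in either direction. With each library left out in turn the count of enzymes was 0 to 4. The groups overlapped for every one of the 9, as they did for all but 0.515% of genes tested. The median log2 fold change was -0.19 over the 9 enzymes and 0.014 over all genes tested. When WT replicate 2 was left out, *Cs*, *Dlst* and *Mdh2* fell past the threshold, 3 of 9 where 13.6% of all genes tested were called lower and 27.6% in either direction. DESeq2 without that library called the same number, 3 of 9, all lower (background 13.9%). WT replicate 2 was the lowest WT library for *Cs*, *Dlst* and *Mdh2*, so leaving it out raised their WT means. With any other single library left out, limma called 0 of 9.

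**Figure D1:**
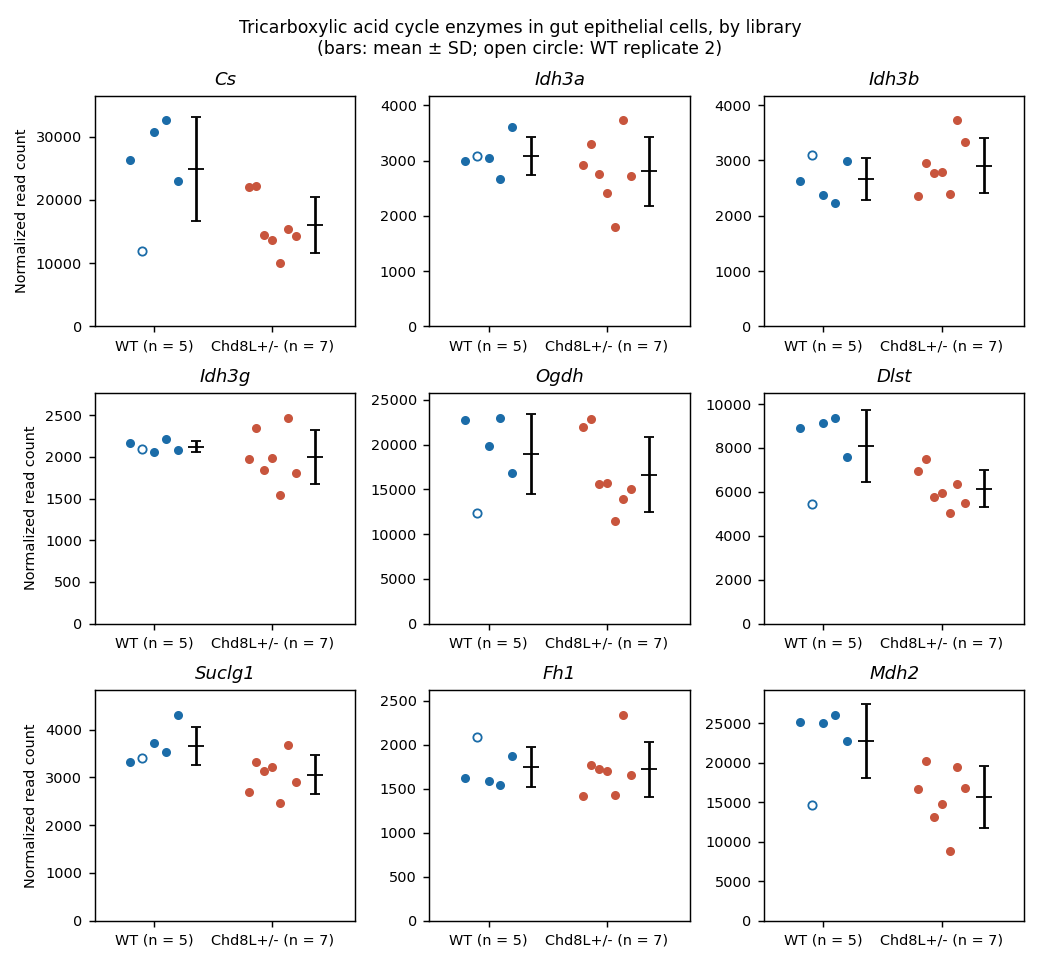
Normalized read counts (y axes, from 0) of the 9 enzymes in each of 5 WT (blue) and 7 *Chd8L*+/- (red) libraries, with the mean ± SD beside each group. WT replicate 2, drawn as an open circle, lies at 11878 for *Cs* and 14683 for *Mdh2*, among the *Chd8L*+/- libraries, while for *Idh3a*, *Idh3b* and *Idh3g* it lies among the WT libraries.

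*Cs* encodes citrate synthase, which joins acetyl-CoA to oxaloacetate. The activity of the enzyme, which was not measured here, is widely used as a measure of mitochondrial content. The *Cs* gene lies on chromosome 10 (128337734 to 128362479, plus strand, GRCm38). Its normalized counts in WT replicates 1 to 5 were 26247, 11878, 30729, 32562 and 23025. The 7 *Chd8L*+/- libraries ran from 10084 through a median of 14515 to 22137. All 7 lay below the 4 WT libraries other than replicate 2, and 1 of 7 lay below replicate 2. The same separation is given for *Mdh2* and *Dlst* below, and the share of all genes with it was not counted. Without replicate 2, limma called 13.6% of all genes tested lower. The means were 24888 ± 8179 (SD, n = 5) and 16010 ± 4455 (SD, n = 7). On the log2 scale *Chd8L*+/- stood at -0.60 relative to WT, with a 95% confidence interval of -1.18 to -0.02 (limma, standard error 0.27, adjusted p = 0.193). The two-sided exact permutation test over the libraries gave p = 0.0669. Without WT replicate 2 the log2 fold change was -0.85 (adjusted p = 0.0148 from limma), and after quantile normalization of all 12 libraries it was -0.27.

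*Mdh2*, malate dehydrogenase 2, regenerates the oxaloacetate that citrate synthase uses. The gene lies on chromosome 5 (135778480 to 135790398, plus strand). WT replicates 1 to 5 had 25139, 14683, 25099, 26106 and 22828 normalized counts. The *Chd8L*+/- libraries had 8866 at the lowest, 16722 at the median and 20260 at the highest. As for *Cs*, every *Chd8L*+/- library was below the 4 WT libraries other than replicate 2, and 2 of 7 were below replicate 2. *Chd8L*+/- against WT gave a log2 fold change of -0.55, with a 95% confidence interval of -1.04 to -0.06 (limma, standard error 0.23, adjusted p = 0.168, exact permutation p = 0.0354). It was -0.70 without WT replicate 2 (adjusted p = 0.0280 from limma) and -0.25 after quantile normalization.

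*Ogdh* and *Dlst* encode the first and second components of the 2-oxoglutarate dehydrogenase complex, which makes succinyl-CoA. *Dlst* (chromosome 12, 85110833 to 85134845, plus strand) had 8929, 5440, 9120, 9386 and 7581 normalized counts in WT replicates 1 to 5. In *Chd8L*+/- libraries it ran from 5038 to 7487 with a median of 5946. All 7 lay below the WT libraries other than replicate 2, and 1 of 7 below replicate 2. The log2 fold change of *Dlst* was -0.38 (standard error 0.16, 95% confidence interval -0.72 to -0.04, adjusted p = 0.171 from limma, exact permutation p = 0.0391), and -0.52 without WT replicate 2 (adjusted p = 0.0139 from limma). After quantile normalization it was -0.14.

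*Ogdh* (chromosome 11, 6291633 to 6356642, plus strand) varied among libraries much as *Dlst* did but separated the genotypes less. WT replicates 1 to 5 had 22760, 12355, 19796, 23032 and 16871 normalized counts. *Chd8L*+/- libraries ran from 11436 through a median of 15598 to 22899, with replicates 1 and 2 at 21922 and 22899, level with the highest WT libraries. Its log2 fold change of -0.19 had a 95% confidence interval of -0.66 to 0.28 (adjusted p = 0.610 from limma, exact permutation p = 0.381), and the value was 0.11 after quantile normalization.

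*Suclg1* (chromosome 6, 73248382 to 73276911, plus strand) encodes the alpha subunit that both forms of succinyl-CoA ligase share. It had 3313, 3401, 3720, 3532 and 4313 normalized counts in WT replicates 1 to 5, where replicate 2 did not stand apart. The *Chd8L*+/- libraries ran from 2470 through 3142 to 3671. 5 of 7 lay below every WT library. The log2 fold change was -0.26 (standard error 0.12, 95% confidence interval -0.52 to -0.0027, adjusted p = 0.202 from limma, exact permutation p = 0.0303), and leaving out WT replicate 2 changed it to -0.29 (adjusted p = 0.107). It was -0.09 after quantile normalization.

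The genes of isocitrate dehydrogenase 3, the NAD-dependent enzyme that turns isocitrate into 2-oxoglutarate, had smaller differences. *Idh3a* (chromosome 9, 54586334 to 54604661, plus strand), the catalytic subunit, had 2661 to 3612 normalized counts in WT with a median of 3053, and 1798 to 3728 in *Chd8L*+/- libraries with a median of 2749. The lowest and highest of all 12 libraries were both *Chd8L*+/-. Its log2 fold change was -0.16 (95% confidence interval -0.50 to 0.18, adjusted p = 0.551 from limma). *Idh3g* (chromosome X, 73778963 to 73786897, minus strand), a regulatory subunit, had the narrowest WT range of the 9 enzymes, 2055 to 2213, against 1539 to 2472 in *Chd8L*+/- libraries. The coefficient of variation of *Idh3g* was 3.07% over the WT and 16.0% over the *Chd8L*+/- libraries, a difference in spread that was not tested; 5 of 7 *Chd8L*+/- libraries were below every WT library and 2 of 7 above every one. The log2 fold change of *Idh3g* was -0.10 (95% confidence interval -0.36 to 0.15, adjusted p = 0.612 from limma), and 0.013 with library totals as the scale.

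*Idh3b* (chromosome 2, 130279309 to 130284547, minus strand), the other regulatory subunit, was the enzyme with a higher mean in *Chd8L*+/- libraries. It had 2626, 3092, 2373, 2225 and 2991 normalized counts in WT replicates 1 to 5, and 2350 to 3725 in *Chd8L*+/- libraries with a median of 2799. The log2 fold change was 0.12 (95% confidence interval -0.17 to 0.42, adjusted p = 0.609 from limma). Exons of *Nop56* on the opposite strand overlap *Idh3b*, and as the use of strand in the counting is not given in the sources used here, reads of the overlap cannot be assigned to either. *Fh1* (chromosome 1, 175600374 to 175625635, minus strand), fumarase, had 1546 to 2081 normalized counts in WT and 1413 to 2340 in *Chd8L*+/- libraries, with a log2 fold change of -0.03 (95% confidence interval -0.31 to 0.26, adjusted p = 0.913 from limma). For *Fh1* and *Idh3b*, WT replicate 2 was the highest WT library, the reverse of its place for *Cs*.

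Per length of the longest coding transcript, the order of levels in WT was *Mdh2* (15640 ± 3214 normalized counts per kb, SD, n = 5), *Cs* (8506 ± 2795), *Ogdh* (4595 ± 1082), *Dlst* (2927 ± 592), *Suclg1* (2407 ± 262), *Idh3b* (1647 ± 233), *Idh3g* (1594 ± 49.0), *Idh3a* (1194 ± 132) and *Fh1* (661 ± 86.3). Each gene was above the next in 5 of 5 WT libraries, except *Dlst* against *Suclg1* (3 of 5) and *Idh3b* against *Idh3g* (2 of 5), whose order is not set beyond their spread. The 4 enzymes with the most reads (*Cs*, *Mdh2*, *Ogdh*, *Dlst*) include the 3 with the most negative log2 fold changes. Of the 491 genes tested with a mean of 5000 normalized counts or more, a floor chosen after the values were seen, 79.4% had the lower mean in *Chd8L*+/-, and their median log2 fold change was -0.26. Together the 9 enzymes took 3411 to 5191 RPM (reads scaled to the library total) in WT, with a median of 4787, and 2530 to 5003 RPM in *Chd8L*+/- libraries, with a median of 3670.

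**Figure D2:**
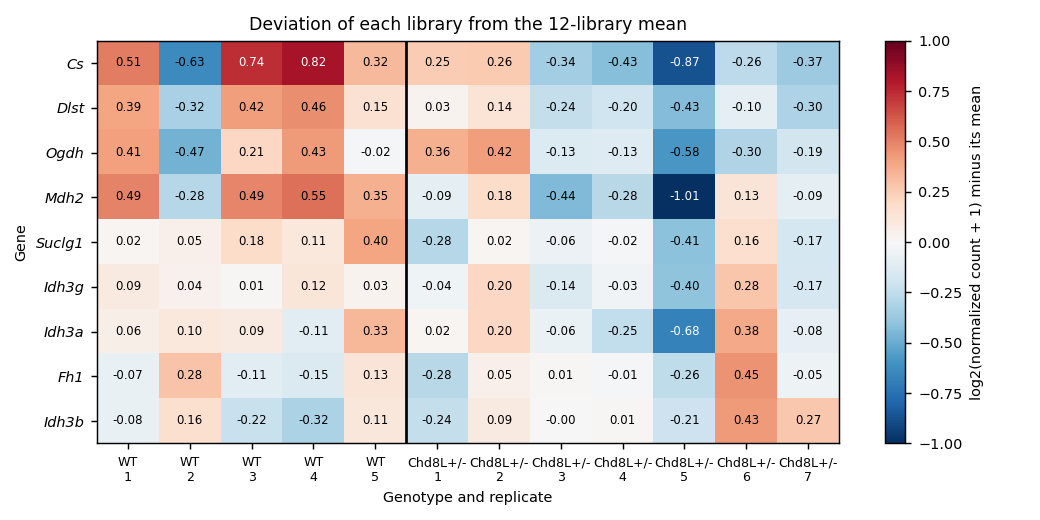
Deviation of each library (columns, by genotype and replicate) from the 12-library mean of log2(normalized count + 1) for the 9 enzymes (rows), with red above and blue below the mean. *Cs*, *Dlst*, *Ogdh* and *Mdh2* share values above the mean in WT replicates 1, 3 and 4 and low values in WT replicate 2 and *Chd8L*+/- replicate 5. *Ogdh* is also high in *Chd8L*+/- replicates 1 and 2 (0.36 and 0.42, against 0.21 in WT replicate 3). *Fh1* and *Idh3b* are highest in *Chd8L*+/- replicate 6.

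*Cs*, *Ogdh*, *Dlst* and *Mdh2*, grouped after their values were seen, varied together across libraries, with Pearson's r of log2 levels between 0.75 and 0.98 over the 6 pairs (12 libraries of both genotypes, given as a description). The other 5 enzymes had r between 0.29 and 0.84 over their 10 pairs, and r between the sets ran from -0.45 to 0.75. *Chd8L*+/- replicate 5 was the lowest of the 12 libraries for *Cs*, *Idh3a*, *Idh3g*, *Ogdh*, *Dlst*, *Suclg1* and *Mdh2*. It was also the library with the highest sums of leukocyte markers (11894 normalized counts) and of stromal and endothelial markers (2406), whose part in its low enzyme levels was not tested. *Chd8L*+/- replicate 6 was the highest of the 12 for *Idh3a*, *Idh3b*, *Idh3g* and *Fh1*. Without *Chd8L*+/- replicate 5 the log2 fold change was -0.50 for *Cs*, -0.42 for *Mdh2*, -0.33 for *Dlst* and -0.11 for *Ogdh*.

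Sums of enterocyte, cycling crypt and tuft cell markers differed between the same libraries, and those of goblet cells did not separate them. The 15 absorptive enterocyte markers summed to 904237 to 1017600 normalized counts in the 4 WT libraries other than replicate 2, to 452276 in WT replicate 2 and to 397549 to 829431 in *Chd8L*+/- libraries, and 14 of 15 had a lower mean. The 15 markers of cycling crypt cells summed to 3684 to 8648 in those 4 WT libraries, to 16725 in WT replicate 2 and to 9552 to 17766 in *Chd8L*+/- libraries, with 15 of 15 higher. The 15 tuft cell markers summed to 15163 to 33390, 3496, and 1937 to 14278 in the same order, with 15 of 15 lower. Of these, *Il25* was at 0 in at least 1 library. The 8 stem cell markers summed to 7044 to 13326 in those 4 WT libraries, to 18731 in WT replicate 2 and to 11963 to 22207 in *Chd8L*+/- libraries, with 7 of 8 higher. For goblet cells, 8 of 9 markers were in the table. Their sums were 98581 to 241791, 139483 and 91214 to 175071 in the same order, so WT replicate 2 lay among the other WT libraries. By single gene, 7 of these 8 had a lower mean and 1 a higher, where 48.6% of all genes tested were lower. Their median log2 fold change was -0.33. DESeq2 called 13 of the 15 tuft, 3 of the 15 enterocyte and 2 of the 8 goblet markers lower (background 4.61%). It called 0 of the cycling crypt and stem cell markers. The part of these cell types in the levels of *Cs*, *Mdh2*, *Dlst* and *Ogdh* was not tested.

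The sequences just upstream of the RefSeq starts (GRCm38.p6) of *Cs*, *Ogdh*, *Dlst* and *Fh1* are shown to set their promoters side by side. *Cs*, *Ogdh* and *Dlst* varied together, with *Mdh2* (not shown), and *Fh1* did not follow them. Each run is 120 bases, 5′ to 3′ on the strand of the gene, ends at the base before the start, and has CCAAT boxes on either strand (CCAAT or ATTGG) in capitals.
Cs (chr10:128337607-128337726, plus): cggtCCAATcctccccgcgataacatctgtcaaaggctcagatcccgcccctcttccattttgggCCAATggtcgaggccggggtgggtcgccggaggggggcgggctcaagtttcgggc
Ogdh (chr11:6291477-6291596, plus): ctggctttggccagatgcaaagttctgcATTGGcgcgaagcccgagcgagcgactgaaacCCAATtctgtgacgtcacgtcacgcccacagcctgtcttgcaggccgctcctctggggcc
Dlst (chr12:85110713-85110832, plus): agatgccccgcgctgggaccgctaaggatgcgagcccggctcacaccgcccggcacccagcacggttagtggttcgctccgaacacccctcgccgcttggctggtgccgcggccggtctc
Fh1 (chr1:175625636-175625755, minus): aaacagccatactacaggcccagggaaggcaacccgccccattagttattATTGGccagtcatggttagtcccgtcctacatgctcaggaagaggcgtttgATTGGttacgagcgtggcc

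8 of the 9 enzymes had an upstream sequence, all but *Idh3a*. CCAAT boxes were in the 250 bases upstream of 4 of these 8 (*Cs*, *Ogdh*, *Idh3b*, *Fh1*), and 36.3% of the 11033 promoters of table genes held one in the same window. For *Idh3b*, *Mdh2* and *Suclg1* the RefSeq start lies inside the GENCODE span given above. Part of their windows is thus within the gene by that annotation, and the box of *Idh3b* is in that part. Among *Cs*, *Ogdh*, *Dlst* and *Mdh2*, which varied together, *Cs* and *Ogdh* had a pair of CCAAT boxes each, and *Dlst* and *Mdh2* had none. *Fh1*, which did not follow them, also had a pair. The other letters searched on both strands were AAGGTCA, the core bound by oestrogen-related receptors (0 of 8 enzymes and 3.1% of promoters), the palindrome bound by nuclear respiratory factor 1 (0 of 8 and 7.6%), CACGTG, the E-box (0 of 8 and 8.1%), CCGGAAG, an ETS core (1 of 8, *Idh3g*, and 12.9%), and GGGGCGGGG, a GC box (1 of 8, *Mdh2*, and 18.7%). No motif in the list holds another. A match describes the window and is not a shown binding site.

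A further 8 mitochondrial enzymes of the cycle also lay on both sides of 0. 6 of 8 had a lower and 2 a higher mean, 0 were called, and the median log2 fold change was -0.33 (-0.09 after quantile normalization). Without WT replicate 2, limma called 4 of 8 lower and 2 higher (background 13.6% and 14.0%). The 4 subunits of succinate dehydrogenase, which is also respiratory complex II, had log2 fold changes of -0.31 (*Sdha*), -0.39 (*Sdhb*), -0.44 (*Sdhc*) and -0.49 (*Sdhd*), with adjusted p-values from limma of 0.245, 0.153, 0.125 and 0.135. On the recovered reads DESeq2 called *Sdhc* (adjusted p = 0.0490) among these 8 enzymes. *Dld*, the third component of the 2-oxoglutarate dehydrogenase complex, which it shares with the pyruvate dehydrogenase complex, had a log2 fold change of -0.13 (adjusted p = 0.517 from limma).

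**Figure D3:**
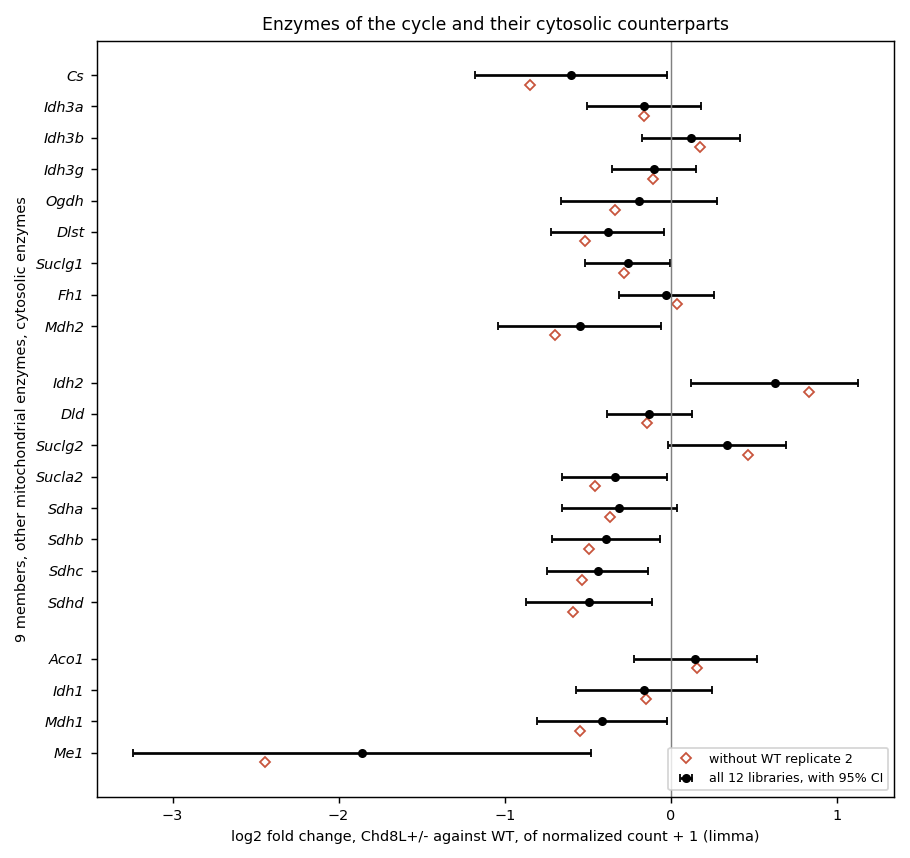
Log2 fold changes of *Chd8L*+/- against WT (x axis) of the 9 enzymes, of 8 other mitochondrial enzymes of the cycle and of 4 cytosolic counterparts, with 95% confidence intervals from limma over all 12 libraries (black) and the value without WT replicate 2 (open red diamonds). *Cs* and *Mdh2* lie near -0.60 to -0.55, and *Idh2* lies on the other side of 0 at 0.62.

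*Idh2* and *Suclg2* were the exceptions. *Idh2*, the mitochondrial NADP-dependent isocitrate dehydrogenase, averaged 799 ± 332 normalized counts over the WT libraries (SD, n = 5) and 1184 ± 260 over the *Chd8L*+/- libraries (SD, n = 7). Its log2 fold change was 0.62 with a standard error of 0.23 (limma, adjusted p = 0.145). *Suclg2*, the beta subunit of the GTP-forming succinyl-CoA ligase, had a log2 fold change of 0.34 (adjusted p = 0.222 from limma), and *Sucla2*, the beta subunit of the ATP-forming ligase, one of -0.34 (adjusted p = 0.182 from limma). Among the cytosolic counterparts, *Mdh1* had a log2 fold change of -0.41 (adjusted p = 0.186), *Idh1* of -0.16 (adjusted p = 0.623), *Aco1* of 0.15 (adjusted p = 0.616) and *Me1*, the malic enzyme that makes NADPH, of -1.86 (adjusted p = 0.128), all from limma. *Me1* ran from 680 to 7112 normalized counts in WT and from 260 to 2653 in *Chd8L*+/- libraries. Its log2 fold change was -2.44 without WT replicate 2 (limma, adjusted p = 0.00772) and -2.42 with the library letter as a block (limma, adjusted p = 0.0434). *Mdh1* was called without WT replicate 2 too (-0.55, limma, adjusted p = 0.0229), and DESeq2 called 0 of these 4 counterparts.

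Ratios within a library compare partners that share a complex or a step, free of the scaling of libraries. 7 ratios were computed, and 0 passed an adjusted p of 0.05 over the 7 in the exact permutation test over all libraries. *Idh3a* to *Idh2*, the NAD-dependent against the NADP-dependent enzyme, had WT ratios of 3.49, 2.32, 6.14, 4.80 and 4.79 in replicates 1 to 5, and 1.73 to 3.76 with a median of 2.56 in *Chd8L*+/- libraries. WT replicates 1 and 2 lay inside that range. The log2 ratio was 2.03 ± 0.54 (SD, n = 5) and 1.25 ± 0.40 (SD, n = 7), a difference of -0.78 (two-sided exact permutation p = 0.0202, adjusted p = 0.119), and 3 of 7 *Chd8L*+/- libraries were below every WT library. Without WT replicate 2 the difference was -0.99 (adjusted p = 0.0212 by the exact permutation test). That library had the lowest WT ratio, so leaving it out widens the difference. With any other single library left out, the adjusted p was 0.0808 or more by that test. With the library letter as a block the difference was -1.03 (adjusted p = 0.0486 by exact permutation within letters). That block allows 72 splits and leaves out *Chd8L*+/- replicate 7, whose letter no WT library has. The p for this ratio was the smallest that block allows.

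The ratio of *Suclg2* to *Sucla2*, the beta subunits that compete for *Suclg1*, was 0.272, 0.579, 0.211, 0.260 and 0.267 in WT replicates 1 to 5, and 0.305 to 0.660 with a median of 0.522 in *Chd8L*+/- libraries. WT replicate 2 lay inside the *Chd8L*+/- range, and the other 4 WT libraries lay below all 7 *Chd8L*+/- libraries. The log2 difference was 0.68 (exact permutation p = 0.0341, adjusted p = 0.119), or 0.92 without WT replicate 2 (adjusted p = 0.0212 by the exact permutation test). WT replicate 2 was the farthest WT library for this ratio, on the side of *Chd8L*+/-, so leaving it out widens the difference. With any other single library left out, the adjusted p was 0.0808 or more by the same test.

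**Figure D4:**
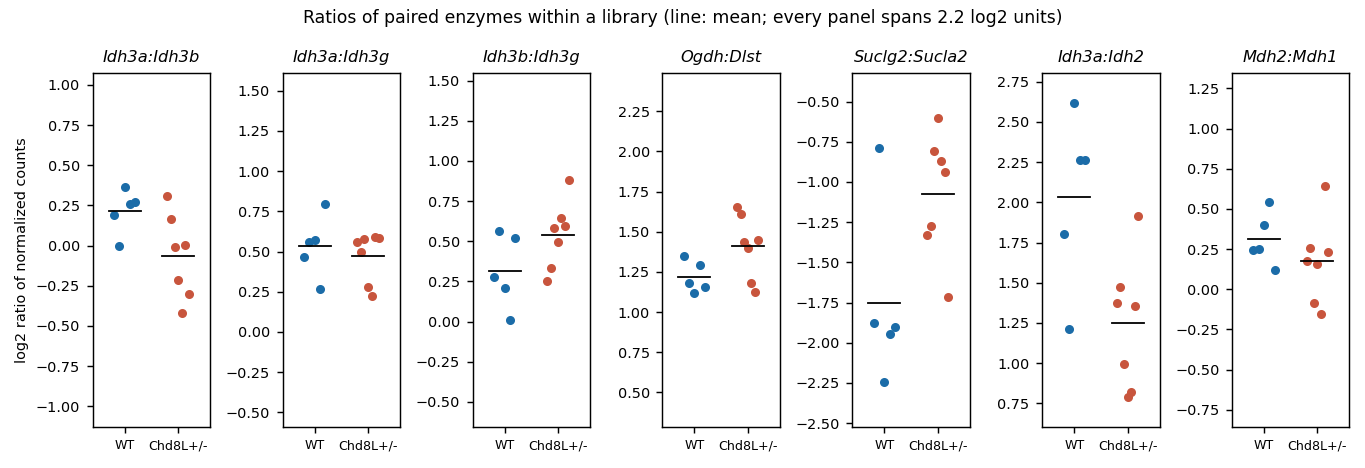
Log2 ratio of normalized counts of 7 pairs of enzymes in each of 5 WT (blue) and 7 *Chd8L*+/- (red) libraries, with a line at the mean of each group, on y axes that all span the same width. *Suclg2:Sucla2* is higher by 0.68 and *Idh3a:Idh2* lower by 0.78 in *Chd8L*+/- libraries in the mean, and the *Chd8L*+/- range holds 1 WT library for the first and 2 for the second.

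The subunits of isocitrate dehydrogenase 3 stayed closer to each other. The log2 ratio of *Idh3a* to *Idh3b* had a WT mean of 0.22 ± 0.14 (SD, n = 5) against -0.07 ± 0.26 (SD, n = 7) for *Chd8L*+/- (difference -0.28, exact permutation p = 0.0593, adjusted p = 0.138). With the library letter as a block that difference was -0.34 and passed (adjusted p = 0.0486 by exact permutation within letters). Here too the p was the smallest that block allows. Counts of *Idh3b* may hold reads of the overlapping *Nop56*, so its ratios to *Idh3a* and *Idh3g* carry that limit. The log2 ratio of *Idh3a* to *Idh3g* differed by -0.06 (adjusted p = 0.583) and that of *Idh3b* to *Idh3g* by 0.22 (adjusted p = 0.148). *Ogdh* to *Dlst* differed by 0.19 (exact permutation p = 0.0833, adjusted p = 0.146), with 5 of 7 *Chd8L*+/- libraries above every WT library. *Mdh2* to *Mdh1*, the mitochondrial and cytosolic ends of the malate shuttle, differed by -0.14 (exact permutation p = 0.332, adjusted p = 0.387).

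Genes that feed or drain the cycle went in both directions, and limma over all 12 libraries called 0 in the lists that follow. Calls by DESeq2, and by limma without WT replicate 2, are given beside each list. Over all genes tested DESeq2 called 4.61% lower and 1.84% higher, and limma without that library called 13.6% lower and 14.0% higher. Of 13 genes of pyruvate entry, 7 were lower and 6 higher, with a median log2 fold change of -0.0083 (0.11 with library totals as the scale). *Mpc1*, a subunit of the mitochondrial pyruvate carrier, had a log2 fold change of -0.68 (adjusted p = 0.122 from limma), *Pdhb*, of the pyruvate dehydrogenase complex, -0.26 (adjusted p = 0.173), *Pdpr*, of its phosphatase, 0.49 (adjusted p = 0.164) and *Pdk3*, a kinase that inhibits it, 0.23 (adjusted p = 0.410). DESeq2 called 1 of the 13 lower, *Mpc1* (adjusted p = 0.0422), which limma with the library letter as a block called too (adjusted p = 0.0485). Limma without WT replicate 2 called 2 lower and 0 higher. Of 15 genes of anaplerosis and cataplerosis, 6 were lower and 9 higher, with a median of 0.20. Those of smallest p in each direction were *Got1*, the cytosolic aspartate aminotransferase (-1.08, adjusted p = 0.121 from limma), *Pck1*, which draws oxaloacetate into glucose synthesis (-0.96, adjusted p = 0.126), *Oat*, ornithine aminotransferase (0.90, adjusted p = 0.138), and *Gls2*, a glutaminase with a mean of 18.6 normalized counts in WT and 37.6 in *Chd8L*+/- libraries (1.36, adjusted p = 0.142). DESeq2 called *Got1* lower (adjusted p = 0.00589) and no other of the 15. *Got1* was also called by limma with the library letter as a block (adjusted p = 0.0470) and without WT replicate 2 (-1.39, adjusted p = 0.00265), where 3 of the 15 were called lower and 4 higher. Of the carriers of cycle intermediates 6 of 8 were tested, 5 lower and 1 higher, with the citrate carrier *Slc25a1* at -0.39 (adjusted p = 0.159), the 2-oxoglutarate carrier *Slc25a11* at -0.30 (adjusted p = 0.216) and the aspartate-glutamate carrier *Slc25a13* at 0.31 (adjusted p = 0.192). DESeq2 called 0 of these 6, and limma without WT replicate 2 called 2 lower and 0 higher.

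**Figure D5:**
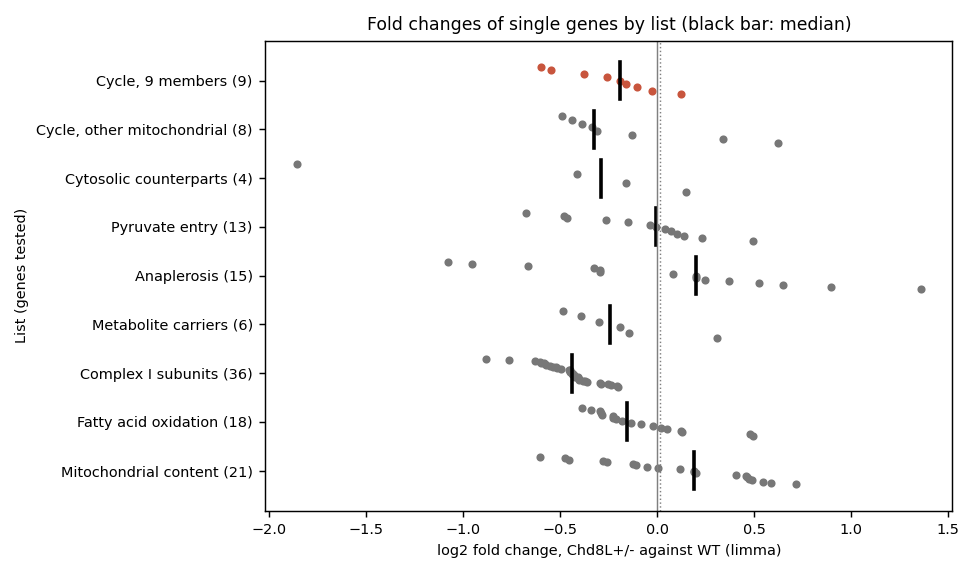
Log2 fold changes of single genes (points, x axis) of *Chd8L*+/- against WT in 9 lists (rows, with the number of genes tested), with a black bar at each list's median and a dotted line at the median of all genes, 0.014. The 36 subunits of complex I all lie below 0, while the 9 enzymes of the cycle run from -0.60 to 0.12.

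Other mitochondrial lists are given for comparison. All 36 structural subunits of respiratory complex I tested had a lower mean in *Chd8L*+/- libraries, with log2 fold changes from -0.88 to -0.21 and a median of -0.44, where 8 of the 9 cycle enzymes did with a median of -0.19; the difference between these lists was not tested. *Ndufc1* (-0.76) and *Ndufa13* (-0.60) had the smallest p among them, each with an adjusted p of 0.121 from limma, and *Ndufc1* was called with the library letter as a block (limma, adjusted p = 0.0434). DESeq2 called 10 of the 36 lower (background 4.61%), and limma without WT replicate 2 called 23 lower (background 13.6%). Of 18 fatty acid oxidation genes, 12 were lower and 6 higher with a median of -0.16 (0.017 after quantile normalization), among them *Decr1* (-0.39) and *Etfb* (-0.29), and on the other side *Cpt1a* (0.49), the gate of fatty acid entry, and *Acaa2* (0.48). DESeq2 called *Decr1* lower (adjusted p = 0.0130) and *Cpt1a* higher (adjusted p = 0.0429), and limma without WT replicate 2 called 5 of the 18 lower and 1 higher. Of 21 genes of mitochondrial content and its regulators, 8 were lower and 13 higher with a median of 0.19. *Vdac3*, an outer membrane channel (-0.61), and *Esrra*, oestrogen-related receptor alpha (-0.45), were lowest by p, and *Polrmt* (0.47) and *Twnk* (0.59), which transcribe and unwind mitochondrial DNA, highest by p, with adjusted p-values between 0.121 and 0.131 from limma for these 4 genes. DESeq2 called *Vdac3* and *Esrra* lower (adjusted p = 0.0230 and 0.0395) and *Polrmt* higher (adjusted p = 0.0435), and limma without WT replicate 2 called 3 of the 21 lower and 7 higher.

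The genes whose levels over the 12 libraries were most like the scaled mean of the 9 enzymes were *Immt* (Pearson's r = 0.98, Spearman's rho = 0.91), *Atp5b* (0.96 and 0.78), *Chchd3* (0.95 and 0.87), *Elp5* (0.93 and 0.92) and *Atp5a1* (0.93 and 0.75). Without the 2 libraries farthest from the median of that mean, *Chd8L*+/- replicates 3 and 5, r was between 0.86 and 0.96. They were picked as the highest of all genes tested, and the libraries differ in genotype and cell makeup, so r is a description. *Immt* and *Chchd3* encode parts of the complex that shapes the cristae, and *Atp5a1* and *Atp5b* the catalytic core of ATP synthase. Their log2 fold changes were -0.26 for *Immt*, -0.31 for *Atp5b*, -0.34 for *Chchd3*, -0.27 for *Elp5* and -0.37 for *Atp5a1*, with adjusted p-values between 0.203 and 0.326 from limma. The 100 genes most like the 9 enzymes were drawn from the 12808 genes tested, less the 9 themselves. Of the 100, 3 were among the further 8 mitochondrial enzymes of the cycle and 4 among the 36 complex I subunits. Fatty acid oxidation held 2 of 18, the cytosolic counterparts 1 of 4 and the carriers 1 of 6. Mitochondrial content held 1 of 21 and the enterocyte markers 1 of 15. Pyruvate entry, anaplerosis and the other marker lists held 0.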

How the data were processed

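The authors sequenced poly(A) RNA single-end and aligned it with Tophat2 (build mm10), followed by DESeq2. The deposited signal per gene is a normalized read count, that is, reads over the size factor of their library. The counting program, annotation and strand setting are not given in the sources used here. Every value was a whole multiple of the worth of 1 read (100% within 0.001), so reads were recovered. Of 14244 rows, 21 have names turned into dates and none is named here.

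Genotypes were compared with limma 3.58.1 (R 4.3.3; trend) on log2(value + 1), which understates changes of low genes, over 12808 genes with a mean of at least 10, adjusted by Benjamini-Hochberg; the test stayed as designed for normalized values. Single values and ratios used a two-sided exact permutation test over the 792 splits (smallest p 0.00126). Alternatives used edgeR 4.0.16, DESeq2 1.42.0 and sva 3.50.0; library totals as the scale, and DESeq2 without WT replicate 2, were added after the values were seen. Steps were tested on simulated data. Positions and lengths come from GENCODE M21 (GRCm38, which mm10 names; 14050 genes matched by symbol, 95 by synonym), upstream sequences from RefSeq (GRCm38.p6; 8 of 9 enzymes matched).

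Members and lists were chosen with earlier results of these data known. Named are the 9 enzymes, 8 other cycle enzymes (1 is not reported here and was left out of its list) and cytosolic counterparts, per further list up to 2 genes of smallest p in each direction, and the 5 genes most like the enzymes; *Chd8* and marker genes are named as checks. Replicates of a group were separate libraries (chi-square per degree of freedom of at least 32.9 between any pair). Replicate numbers did not pair the genotypes.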

Additional observations from a re-analysis of the deposited data

Results flagged for a closer look

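Of 32 sets tested (9 enzymes and 7 ratios in each genotype), 2 held a library far from the others of its genotype, where chance gives 1.6. Both were WT replicate 2. *Mdh2* stood there at 13.84 on the log2(value + 1) scale, or 14683 normalized counts, with the nearest other WT library at 14.48 on that scale. The log2 ratio of *Suclg2* to *Sucla2* stood there at -0.79, with the nearest other WT library at -1.88. The other WT libraries and WT replicate 2 also differ in the sums of enterocyte and cycling cell markers, whose part in these values was not tested.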

How the results depend on the processing

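The number of genes called between genotypes (3 in the main comparison) was 0 with library totals as the scale, 0 with the replicate number as a block, 451 with the library's letter as a block (276 lower, 175 higher), 5 with edgeR, 811 with DESeq2 (580 lower, 231 higher) and 4112 with DESeq2 without WT replicate 2. With each library left out in turn it was 0 to 3534, highest without WT replicate 2 and 0 to 8 for the rest. The number of enzymes called was 3 with DESeq2 without WT replicate 2 (adjusted p of 0.00126 for *Cs*, 0.000984 for *Dlst* and 0.00587 for *Mdh2*), 0 to 3 with each library left out, highest without WT replicate 2, and 0 otherwise. The median log2 fold change of the enzymes stayed below 0, at -0.29 to -0.11 with each library left out and -0.28 to -0.0075 under the other alternatives, nearest to 0 after quantile normalization. Library totals as the scale moved the median of all genes tested from 0.014 to 0.129. Relative to such shifts *Cs*, *Mdh2*, *Dlst*, *Suclg1* and *Idh3a* were lower under each scaling, in direction only. After quantile normalization *Suclg1* stood at -0.086 and *Idh3a* at -0.0075. In that fit the adjusted p from limma for these enzymes ran from 0.393 (*Cs*) to 0.985 (*Idh3a*).

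Directions of single enzymes that were not called changed as follows, and the cause was not tested: after quantile normalization *Idh3g* (0.028), *Ogdh* (0.11) and *Fh1* (0.094); with library totals as the scale *Idh3g* (0.013) and *Fh1* (0.087); with 1 surrogate variable *Cs* (0.068), *Ogdh* (0.22) and *Idh3b* (-0.0053); with length and GC content trends removed *Idh3g* (0.0057); *Fh1* with DESeq2 without WT replicate 2 (0.052), and 0.038, 0.016 and 0.012 without WT replicate 2, *Chd8L*+/- replicate 1 or *Chd8L*+/- replicate 5. The surrogate variable was 0.33 in WT replicate 2, -0.50 to -0.18 in the other WT libraries and -0.040 to 0.31 in *Chd8L*+/- libraries. *Idh3a* to *Idh3b* (-0.34) and *Idh3a* to *Idh2* (-1.03) passed 0.05 with the library letter as a block. Both had adjusted p = 0.0486 (exact permutation within letters), from the smallest p that block allows. It has 72 splits and leaves out *Chd8L*+/- replicate 7, whose letter no WT library has. With each library left out, differences ran from -0.34 to -0.22 for *Idh3a* to *Idh3b*, -0.12 to 0.0071 for *Idh3a* to *Idh3g*, 0.55 to 0.92 for *Suclg2* to *Sucla2* and -0.99 to -0.64 for *Idh3a* to *Idh2*. Replicate numbers did not pair the samples: deviations of same-numbered libraries correlated between -0.34 and 0.19, and 1 of 10 libraries matched its own number best. With the replicate block, which leaves *Chd8L*+/- replicates 6 and 7 unpaired, the median of the enzymes was -0.25 and 0 were called; for ratios that block allows no p under 0.0625. Depth sets little limit on the enzymes, each with at least 1368 reads in every library.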
